A study of Mus musculus with 10 samples.

Results

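The T-cell receptor loci of mouse BCR-ABL1 leukemias were examined for gains and losses of DNA by array comparative genomic hybridisation. The members were all probes, short oligonucleotides of the array, whose mm9 position lies inside chr14:53040000-54850000 (Tcra and Tcrd), chr6:40840000-41510000 (Tcrb) or chr13:19265000-19455000 (Tcrg). These were 292 of 402346 placed probes, with 160 in Tcra and Tcrd, 107 in Tcrb and 25 in Tcrg. The tumours were 5 Ikzf1+/+ and 5 Ikzf1+/- leukemias, all positive for GFP and all BCR-ABL1 driven. Ikzf1 encodes Ikaros, a transcription factor of lymphoid cells, and BCR-ABL1 is a fusion tyrosine kinase. On each array Cy5 carried DNA of leukemic bone marrow and Cy3 carried DNA of stage-matched bone marrow without leukemia, which the design text of the series calls B220+ B cells. Dyes were not swapped on any array. No label says whether tumours of a genotype came from separate mice, nor whether 1 preparation of non-leukemic DNA served several arrays, so the p-values below measure only the spread between these samples.

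T-cell receptors are assembled from separate V, D, J and C gene segments by RAG-mediated V(D)J recombination. Joining by deletion removes the DNA between the joined segments from the chromosome, and joining by inversion keeps it. Tcra and Tcrg encode chains joined from V and J segments, and Tcrb and Tcrd encode chains that also use D segments. Tcrd lies within Tcra, so that a deletional V to J joining of Tcra removes Tcrd. T cells carry such deletions, whereas B cells rearrange the immunoglobulin loci. In human B-lineage leukemias, rearranged T-cell receptor genes are also found, and the recombinase can act at sites outside the receptor genes. A loss therefore shows on these arrays as a stretch of neighbouring probes with a low ratio in 1 tumour, and its ends can differ from tumour to tumour.

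The gene content of the loci was read from a RefSeq table of another build, GRCm38, used for names and gene order only. On chromosome 14 it lists 202 segments from Trav1 to Trac, with 136 V, 2 D, 62 J and 2 C segments, 26 of the 202 being pseudogenes. The Tcrd D, J and C segments follow most V segments and precede the Tcra J segments and Trac, the constant segment of the alpha chain. On chromosome 6 it lists 53 segments, with 35 V, 2 D, 14 J and 2 C segments, and 14 of the 53 are pseudogenes. Trbv31 is the last of them and follows Trbc2. The locus also holds 13 protein-coding genes, many of them trypsinogen genes such as Try4, Try5, Prss1 and Prss2, which encode precursors of digestive enzymes. On chromosome 13 it lists 15 segments, with 7 V, 4 J and 4 C segments. The order of these segments was not tied to single probes, because mm9 gene positions were not used here.

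Probes covered the loci unevenly. Tcra and Tcrd, 1810 kb long, held 8.84 probes per 100 kb, against 19.6 in the 1 Mb on either side. Neighbouring probes lay 5.68 kb apart in the median, but 6 gaps were longer than 50 kb and summed to 744 kb, and the longest spanned 242 kb, from 53471599 to 53714075. Losses inside these gaps would not be seen. Tcrb, 670 kb long, held 16.0 probes per 100 kb against 16.4 in its flanks, with a longest gap of 34.7 kb. Tcrg, 190 kb long, held 13.2 against 15.4, with a longest gap of 21.6 kb. The software rated 156, 105 and 24 of the members as clearly above background, with neither dye saturated, on every array.

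Ratios are given as log2 of tumour over non-leukemic DNA, centred on the autosomal median of each array, so 0 is the typical autosomal level. Loss of 1 of 2 copies in every cell would give -1, and a gain to 3 copies 0.58. The noise of single probes, estimated from the median difference of neighbouring probes, was 0.184 to 0.222 on the Ikzf1+/+ arrays. On the Ikzf1+/- arrays it was 0.171 to 0.194. This estimate is a robust SD, which gives little weight to extreme probes. The median background-corrected Cy5 signal was 88.4 to 159 on the Ikzf1+/+ arrays and 199 to 225 on the Ikzf1+/- arrays, without overlap, and that of Cy3 was 146 to 179. Whether this difference in signal bears on the comparisons of genotypes was not tested. Of 5 slides, 1 held both genotypes, namely Ikzf1+/+ tumour 5 and Ikzf1+/- tumour 1.

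Averaged over each locus, the receptor loci lay close to the autosomal level in all 10 leukemias. The mean over the 160 probes of Tcra and Tcrd ranged from -0.067 to 0.036, that over the 107 probes of Tcrb from -0.028 to 0.017, and that over the 25 probes of Tcrg from -0.055 to 0.058. No locus in any tumour came near the -1 of a lost copy. The mean of all 292 probes ranged from -0.041 in Ikzf1+/+ tumour 5 to 0.029 in Ikzf1+/+ tumour 1.

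To set each locus against its neighbourhood, the mean of its 1 Mb flanks was subtracted. Tumour DNA was Cy5 on every array, so a dye effect shared by the arrays stays in means over tumours, and it was not tested. No other regions were tested in this way, so no share of like regions passing can be given. For Tcra and Tcrd this difference was -0.014, -0.057, -0.045, -0.068 and -0.064 in Ikzf1+/+ tumours 1 to 5. The Ikzf1+/- tumours, in the same order, stood at -0.082, -0.011, -0.0023, -0.050 and 0.012. The locus lay below its flanks in 9 of 10 tumours, and the genotypes overlapped. The mean over 10 tumours was -0.038 (95% interval -0.062 to -0.015, two-sided exact sign-flip permutation p = 0.00781, adjusted p = 0.0117 over the 3 loci). The flanks themselves lay at 0.022 ± 0.020 (SD, n = 10). They were uneven, with run means in the proximal flank up to 0.37 among Ikzf1+/+ and 0.31 among Ikzf1+/- tumours. With medians over probes the mean difference was -0.029 (exact sign-flip adjusted p = 0.0439). Without subtracting flanks the mean of the locus was -0.016 ± 0.033 (SD, n = 10, exact adjusted p = 0.3125), so the call rested on the flanks.

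For Tcrb the difference was 0.079, 0.026, 0.067, 0.045 and 0.043 in Ikzf1+/+ tumours 1 to 5. The Ikzf1+/- tumours, in the same order, stood at 0.0060, 0.053, -0.0073, 0.030 and 0.010. The locus lay above its flanks in 9 of 10 tumours, and 2 of 5 Ikzf1+/- tumours lay within the range of the Ikzf1+/+ tumours and the other 3 below it. The mean was 0.035 (95% interval 0.016 to 0.055, exact sign-flip p = 0.00586, adjusted p = 0.0117). The Tcrb flanks lay at -0.041 ± 0.027 and the locus without subtraction at -0.0058 ± 0.017 (SD, n = 10 each, exact adjusted p = 0.3125 for the locus), so the direction turned when the flanks were left out.

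For Tcrg the difference was 0.020, -0.020, -0.035, -0.0065 and 0.073 in Ikzf1+/+ tumours 1 to 5. The Ikzf1+/- tumours, in the same order, stood at 0.044, 0.099, 0.021, 0.024 and 0.066. All 5 Ikzf1+/- tumours and 2 of 5 Ikzf1+/+ tumours were above 0. The mean was 0.028 (95% interval -0.0025 to 0.059, exact sign-flip p = 0.0645, adjusted p = 0.0645). This value rested on 25 probes, and it passed the threshold without Ikzf1+/+ tumour 2 (0.034, exact adjusted p = 0.0430) or without Ikzf1+/+ tumour 3 (0.035, exact adjusted p = 0.0312).

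**Figure D1:**
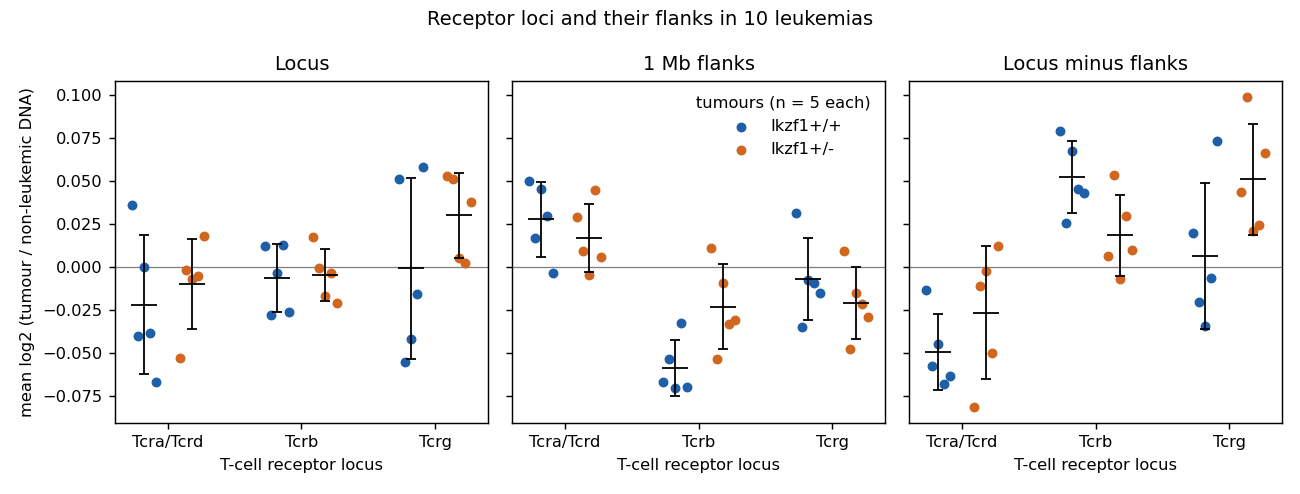
Mean log2 ratio of tumour over non-leukemic DNA for each receptor locus, for its 1 Mb flanks and for their difference, with 1 point per tumour and black bars for mean ± SD (n = 5 per genotype). Locus means stay between -0.067 and 0.058, and the flanks of Tcrb lie below 0 in 9 of 10 tumours.

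Next, the mean of each locus relative to its flanks was compared between genotypes. Gains and losses within a locus can cancel in this mean, so it does not count changes. No locus differed past the threshold. Relative to its flanks, Tcra and Tcrd averaged -0.050 ± 0.022 among Ikzf1+/+ and -0.027 ± 0.038 among Ikzf1+/- leukemias (SD, n = 5 each), which is 0.023 higher (95% interval -0.027 to 0.066, two-sided exact permutation p = 0.286, adjusted p = 0.286). Tcrb lay at 0.052 ± 0.021 and 0.018 ± 0.024, a difference of -0.034 (95% interval -0.069 to 0.0032, exact permutation p = 0.0556, adjusted p = 0.155). Tcrg lay at 0.0063 ± 0.042 and 0.051 ± 0.032, a difference of 0.044 (95% interval -0.012 to 0.10, exact permutation p = 0.103, adjusted p = 0.155). With 5 against 5 tumours the smallest p is 0.00794. The Tcrg difference was 0.061 without Ikzf1+/+ tumour 5 (exact permutation adjusted p = 0.0476), which was the highest tumour of its genotype. On the slide with both genotypes, the Tcra and Tcrd difference was -0.018 and the Tcrg difference -0.029, each opposite in sign to the whole. The Tcrb difference there was -0.037, with the same sign as the whole. Each of these came from 1 tumour per genotype.

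Because a rearrangement removes only part of a locus, each array was also divided into segments by change points, on its own. A segment counted as called with at least 5 probes and a mean of 0.3 or more from 0. No segment was called at Tcra and Tcrd, Tcrb or Tcrg in any of the 10 tumours. Over all autosomes 17 to 53 segments were called per Ikzf1+/+ tumour and 2 to 16 per Ikzf1+/- tumour. Tcra and Tcrd lay in a single segment in each tumour, the shortest with 2142 probes, and its mean ranged from -0.015 to 0.039. Tcrg also lay in a single segment in each tumour, with means from -0.048 to 0.0067. Tcrb lay in a single segment in 8 tumours. In Ikzf1+/+ tumour 4 a change point fell inside Tcrb between 41354379 and 41358605, with -0.0081 before it and -0.062 after it. In Ikzf1+/+ tumour 5 it fell between 41260280 and 41262691, with -0.023 before it and -0.099 after it. The segments on either side reached far beyond the locus, with 862 or more probes each, so these steps were not stretches of loss bounded by the locus.

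Shorter stretches were followed as runs of 5 consecutive probes, 24.7 kb long in the median within the loci. The loci held 56 runs, 31 in Tcra and Tcrd, 21 in Tcrb and 4 in Tcrg, and 12 of the 292 probes fell outside them. The run means over 10 tumours had a median of -0.023 in Tcra and Tcrd, -0.0089 in Tcrb and 0.024 in Tcrg, and of 9.5e-05 over all 76491 autosomal runs. The noise of single runs over the autosomes, a robust SD from percentiles, was 0.102 to 0.129 on the Ikzf1+/+ arrays. On the Ikzf1+/- arrays it was 0.0796 to 0.0997, without overlap, so a fixed cutoff is not equally strict in both genotypes. Of 560 values of a run in a tumour, 2 were -0.3 or lower, a share of 0.357% against 0.688% on autosomes, and 1 was 0.3 or higher, against 1.3%. Both low values were in Tcrb of Ikzf1+/+ tumour 2, at 41043508 to 41067137 (-0.32) and at 41368174 to 41422591 (-0.32). The high value was in Tcra and Tcrd of Ikzf1+/- tumour 5. Thus low runs were no more frequent at the receptor loci than their share over the autosomes, and 9 of 10 tumours had none.

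**Figure D2:**
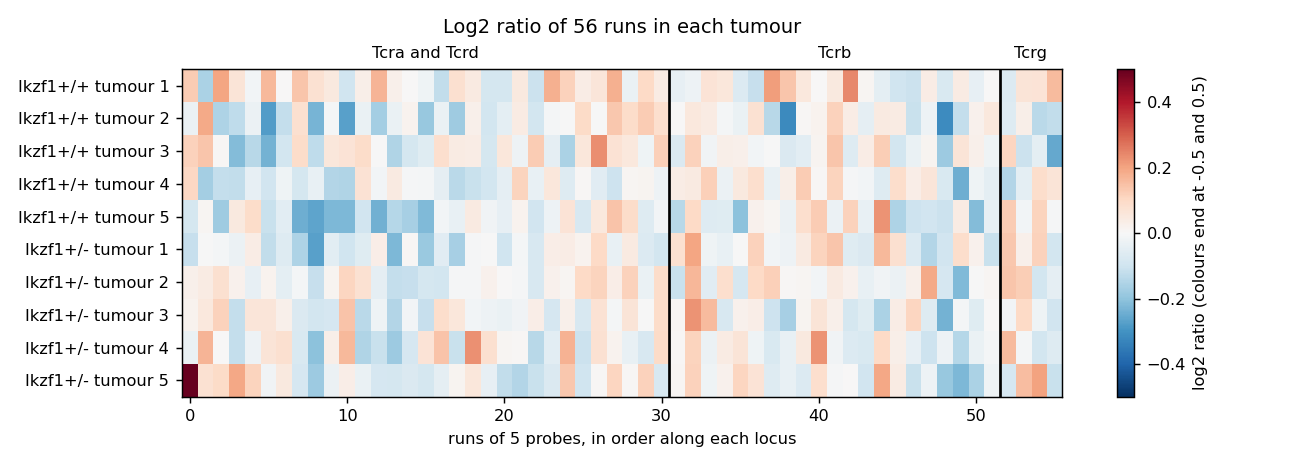
Log2 ratio of the 56 runs of 5 probes (columns, in order along each locus) in each of 10 tumours (rows), with blue below 0 and red above 0. The strongest colour is the first run of Tcra and Tcrd in Ikzf1+/- tumour 5, at 0.99, and no tumour shows a row of neighbouring runs in strong blue.

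The lowest run of each tumour lay at -0.16, -0.32, -0.26, -0.24 and -0.26 in Ikzf1+/+ tumours 1 to 5. The Ikzf1+/- tumours, in the same order, stood at -0.27, -0.22, -0.24, -0.21 and -0.22. These values fall in a narrow band far above -1, and the genotypes overlap. In Tcra and Tcrd the lowest run of a tumour ranged from -0.28 to -0.12, and the run at 53390264 to 53459209 was the lowest in 4 of 10 tumours. In Tcrb it ranged from -0.32 to -0.12, and the run at 41429573 to 41460589 was the lowest in 4 of 10 tumours. In Tcrg it ranged from -0.26 to -0.015. The highest run of a tumour ranged from 0.098 to 0.99 in Tcra and Tcrd, from 0.12 to 0.24 in Tcrb and from 0.031 to 0.20 in Tcrg.

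Between genotypes, 0 of the 56 runs were called by limma at an adjusted p of 0.05 over all autosomal runs, and the smallest adjusted p was 0.239. At an unadjusted p of 0.05, 2 of 56 passed, against 9334 of 76491 over the autosomes. Over all autosomal runs 0.0353% were called higher and 0.129% lower in Ikzf1+/- tumours, so a count of 0 among 56 is close to that background. There were also 0 runs of the loci in which the genotypes did not overlap, against 2.8% of autosomal runs. The run that differed most was in Tcra and Tcrd, at 53759005 to 53987490. It lay at -0.099, -0.27, 0.069, -0.15 and -0.22 in Ikzf1+/+ tumours 1 to 5. Ikzf1+/- tumours 1 to 5 read -0.10, 0.11, 0.14, 0.16 and 0.035. The difference was 0.21 ± 0.066 (SE, limma adjusted p = 0.239), and the genotypes overlapped. Ikzf1+/+ tumours 1 and 3 and Ikzf1+/- tumours 1 and 5 lay within the range of the other genotype. One probe of this run, at 53961688 to 53961747, read -1.02 in Ikzf1+/+ tumour 2 and -1.28 in Ikzf1+/+ tumour 5, and up to 0.68 elsewhere. It was dim in both channels on every array, at most -1.62 (log2) relative to the array's median. The largest differences in Tcrb were 0.11 at 40853580 to 40876114 and -0.10 at 41174493 to 41205108, and those in Tcrg were 0.095 at 19314431 to 19373569 and -0.048 at 19402286 to 19434716, with limma adjusted p-values from 0.374 to 0.802.

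Against non-leukemic DNA, limma called 4 of the 56 runs over 10 tumours. These were 1 higher, 1.79% against 4.67% of autosomal runs, and 3 lower, 5.36% against 5.29% of autosomal runs. Here the shares called were near or below the background, and the called means ranged from -0.14 to 0.11. After subtracting the median of the other probes within 1 Mb from each run, 3 runs were called higher (5.36% against 2.53%) and 4 lower (7.14% against 2.13%). Under that setting both shares thus lay above the background. With runs of 10 probes the share called lower was also above it (14.8% against 9.90%), and that called higher was 7.41% against 7.84%. In Tcrb the run at 40853580 to 40876114, at the proximal end of the locus, was higher by 0.11 ± 0.023 (SE, limma adjusted p = 0.00901). It read -0.025, 0.053, 0.12, 0.046 and 0.10 in Ikzf1+/+ tumours 1 to 5. Ikzf1+/- tumours 1 to 5 read 0.20, 0.17, 0.23, 0.11 and 0.12, so 9 of 10 tumours were above 0 and the genotypes overlapped. The run at 41368174 to 41422591, in the distal part of the locus, read -0.075, -0.32, -0.18, -0.075 and -0.11 in Ikzf1+/+ tumours 1 to 5. It read -0.096, -0.085, -0.24, -0.027 and -0.19 in Ikzf1+/- tumours 1 to 5. All 10 tumours were below 0, with a mean of -0.14 ± 0.029 (SE, limma adjusted p = 0.00873), and the genotypes overlapped.

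In Tcra and Tcrd the run at 53390264 to 53459209 read 0.075, -0.23, -0.13, -0.036 and -0.26 in Ikzf1+/+ tumours 1 to 5. Ikzf1+/- tumours 1 to 5 read -0.27, -0.11, -0.092, -0.21 and -0.18. This run was below 0 in 9 of 10 tumours, with a mean of -0.14 ± 0.031 (SE, limma adjusted p = 0.0114). The run at 54181661 to 54278038 was below 0 in 8 of 10 tumours, with a mean of -0.10 ± 0.026 (SE, limma adjusted p = 0.0229). With the median of the 5 probes in place of their mean, 1 of these 4 runs was still called, that at 53390264 (limma adjusted p = 0.0288), and the other 3 had adjusted p-values from 0.116 to 0.236. With normexp background correction the run at 41368174 lay at -0.069 (limma adjusted p = 0.153).

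**Figure D3:**
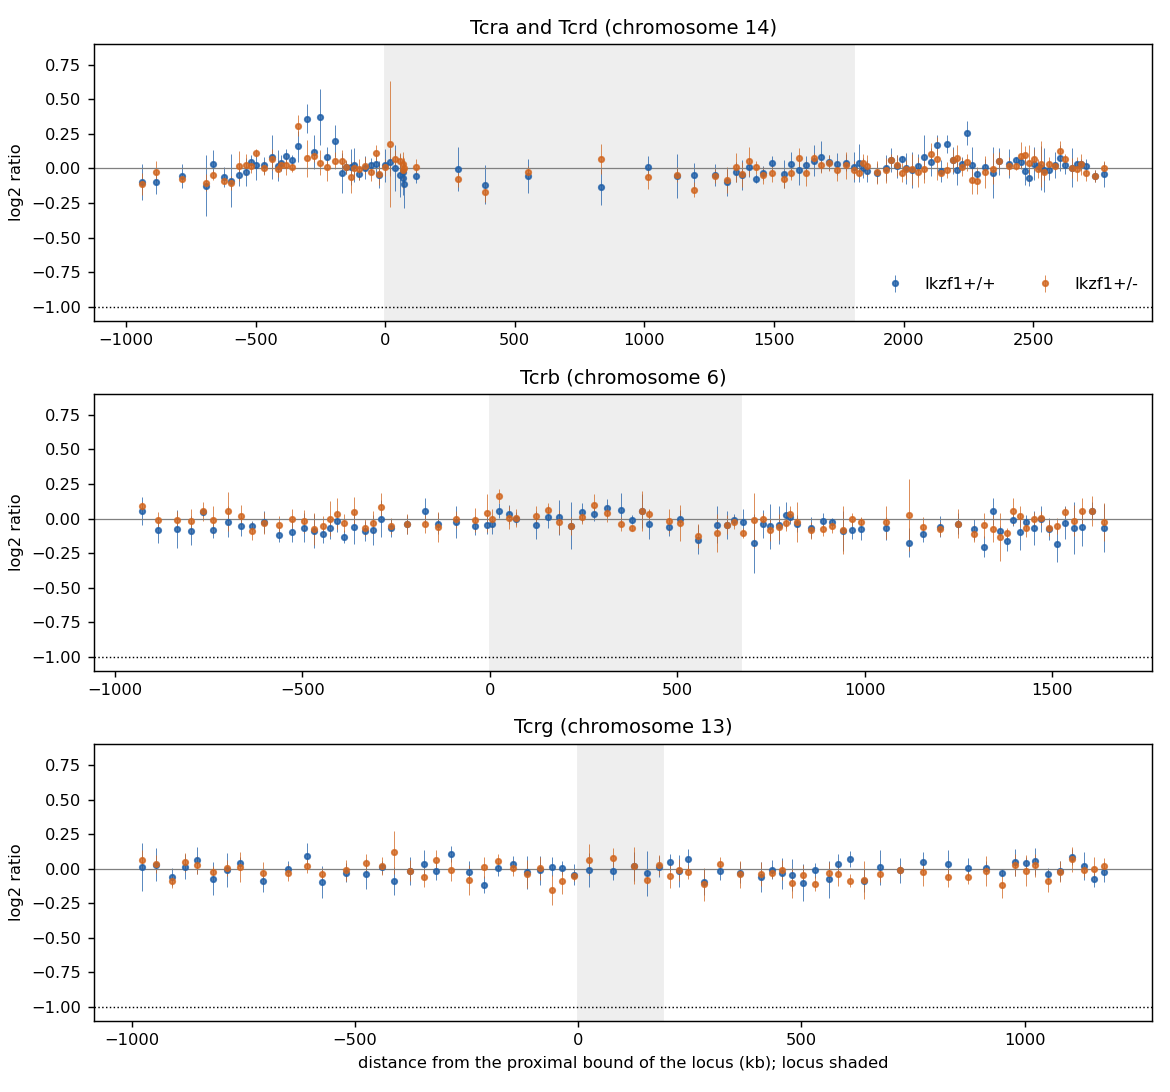
Mean log2 ratio of runs of 5 probes along each receptor locus (shaded) and its 1 Mb flanks, with SD bars over 5 tumours per genotype and a dotted line at -1, the level of 1 lost copy of 2. Within the loci genotype means stay between -0.17 and 0.18. The 0.18 is the first run of Tcra and Tcrd in Ikzf1+/- tumours, where tumour 5 read 0.99 and the others -0.12 to 0.025. The runs that stand highest, up to 0.37 in Ikzf1+/+ tumours, lie in the proximal flank of Tcra and Tcrd, outside the locus.

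The high run of Ikzf1+/- tumour 5, at 53052204 to 53066674 in the proximal end of Tcra and Tcrd, rested on a single spot. Its probe at 53066615 to 53066674 read 4.72 in that tumour and -0.29 to 0.32 in the other 9. The neighbouring probes of that tumour read -0.083 and 0.12. In this spot the Cy5 level was 0.043 relative to the array's median, against -0.77 to -0.23 on the other arrays, and the Cy3 level was -4.67 against -0.93 to -0.25. The Cy3 level of this 1 spot thus stood further from the other arrays than its Cy5 level. Without this probe, an alternative added after seeing the data, the Tcra and Tcrd difference from the flanks in that tumour was -0.018 instead of 0.012. The mean over 10 tumours was then -0.041 (exact sign-flip adjusted p = 0.00586), and all 10 tumours lay below their flanks.

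Single low probes were about as frequent in the loci as on the autosomes. Of 2919 values of a member probe in a tumour, 41 were -0.5 or lower, 1.4% against 1.36% on autosomes, and 32 were 0.5 or higher, 1.1% against 1.35%. The low values numbered 27 in the Ikzf1+/+ tumours, 1.85% against 1.98% on the autosomes of the same arrays. In the Ikzf1+/- tumours they numbered 14, 0.96% against 0.741%. Single tumours had from 1 to 9 among Ikzf1+/+ and from 1 to 5 among Ikzf1+/- leukemias. A loss longer than the probe spacing would lower neighbouring probes together. Of 2888 neighbouring pairs, 1 had both probes at -0.5 or lower, against 0.071% of pairs on autosomes. It lay in Tcra and Tcrd of Ikzf1+/+ tumour 5, with -0.72 at 54178846 and -0.64 at 54181661, and the probes on either side read -0.25 and -0.17.

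The distal ends of Tcra and Tcrd and of Tcrb were also described apart, with bounds chosen after values were seen and with no test. The last 150 kb of Tcra and Tcrd, 24 probes, averaged 0.042 ± 0.055 among Ikzf1+/+ and 0.0090 ± 0.025 among Ikzf1+/- leukemias, and the other 136 probes at -0.033 ± 0.045 and -0.013 ± 0.027 (SD, n = 5 each). The last 50 kb of Tcrb, 13 probes, lay at -0.015 ± 0.029 and -0.047 ± 0.040, and the other 94 probes at -0.0053 ± 0.024 and 0.00087 ± 0.016. The lowest tumour in either distal end was Ikzf1+/- tumour 5 in Tcrb, at -0.11.

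The pattern of ratios along a locus was only weakly shared between arrays. Across the 159 probes of Tcra and Tcrd measured on every array, the mean Pearson r of pairs of arrays was 0.12 among Ikzf1+/+, 0.21 among Ikzf1+/- and 0.11 between genotypes. Across the 107 probes of Tcrb it was 0.059, 0.27 and 0.13, and across the 25 probes of Tcrg 0.073, 0.30 and 0.10. In the flanks it was 0.28, 0.28 and 0.11 for Tcra and Tcrd. The flanks gave 0.054, 0.13 and 0.077 for Tcrb, and 0.088, 0.18 and 0.047 for Tcrg. Within each genotype Tcra and Tcrd thus lay below its flanks, while Tcrb and Tcrg lay above theirs among Ikzf1+/- arrays. Single pairs of arrays ranged from -0.51 to 0.57 in Tcrg. These are correlations across probes, which are not replicates, and all arrays share probe sequence and dye orientation.

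The receptor loci were set beside the distal region of chromosome 12 where losses were called, chr12:114670169-115978441, in the part of the chromosome that holds the immunoglobulin heavy-chain locus Igh, which B cells rearrange. This region was chosen from the losses called in 9 of these tumours, so its low values are a description with no test. Its lowest run lay at -1.22, -4.10, -3.18, -2.05 and -1.71 in Ikzf1+/+ tumours 1 to 5. In Ikzf1+/- tumours 1 to 5 it lay at -0.43, -3.49, -0.53, -0.75 and -1.58. In each tumour the lowest run here was lower than the lowest run of the T-cell receptor loci, and in Ikzf1+/- tumour 1 the values were closest, -0.43 against -0.27. Of its 36 runs, 36, 35, 21, 14 and 19 were at -0.3 or lower in Ikzf1+/+ tumours 1 to 5. Among Ikzf1+/- tumours 1 to 5 such runs numbered 1, 31, 2, 8 and 16. Among the 56 runs of the T-cell receptor loci this count was 2 in Ikzf1+/+ tumour 2 and 0 in the other 9 tumours.

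**Figure D4:**
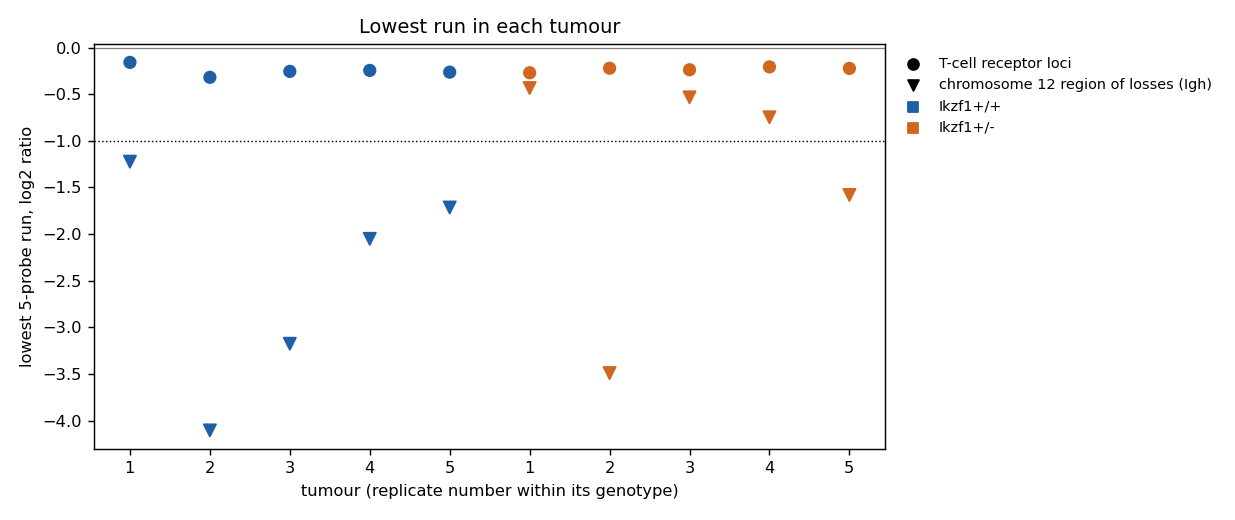
Lowest log2 ratio of a 5-probe run in each tumour, in the T-cell receptor loci (circles, 56 runs) and in the chromosome 12 region of losses (triangles, 36 runs), with a dotted line at -1. The circles stay between -0.32 and -0.16, and the triangles reach -4.10.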

How the data were processed

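Each of 10 two-channel arrays was read from its deposited scanner file, which gives a processed intensity per spot for Cy5 and Cy3. Per the file headers these came from Agilent Feature Extraction 10.7.3.1 with a CGH protocol whose name states lowess, on mm9, while the submitters' processing notes name version 10.5.1.1. The deposited matrix holds log2 ratios, uncentred, which matched the scanner's log10 ratio of Cy5 over Cy3 (per the file headers) with a slope of 1.00 on every array. Column medians lay from -0.019 to -0.00060.

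Of 412783 spots that were not controls, outlier spots were left out. Log2 of processed Cy5 over Cy3 was averaged per probe (402404 probes, 402346 of them placed) and centred on the autosomal median. Locus values were tested by exact permutation, with intervals from inverting the tests. Runs of 5 probes were tested with limma 3.58.1 (lmFit, eBayes, Benjamini-Hochberg over 76491 runs). Segments were change points penalised by 2 times the noise variance times the log of the probe number, with at least 3 probes. Statistics were tested on simulated data. R 4.3.3, numpy 2.4.6, scipy 1.17.1 and matplotlib 3.10.9 were used.

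Named runs were those called by limma, the lowest and highest mean, the largest genotype difference each way, and each tumour's lowest and highest run. Members, lists and regions were chosen with earlier results of these data known. The files name no genes for probes, so gene names came from the GRCm38 table instead of the array annotation. Normexp (an alternative background correction) used median signals, in place of the mean signals first planned. The number of arrays limits the precision.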

Additional observations from a re-analysis of the deposited data

Results flagged for a closer look

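The run of 5 probes at chr14:53052204-53066674, in the proximal end of Tcra and Tcrd, had 1 Ikzf1+/- tumour far from the other 4. Ikzf1+/- tumour 5 read 0.99, against -0.12, 0.025, 0.016 and -0.032 in Ikzf1+/- tumours 1 to 4, and the gap to the nearest tumour exceeded Dixon's critical value for 5 samples. A single probe of the run read 4.72 in that tumour, with a Cy3 level of -4.67 (log2, relative to the array's median). Of 24 groups of 5 tumours examined this way, 1 was past the critical value. The runs among these groups were chosen from the same values. This run entered as the highest mean of its locus, which the value of 0.99 itself raised. The usual chance rate of about 1 in 20 therefore does not apply here.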

How the results depend on the processing

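With 0 tumours, the count of tumours with a called segment was the same under all 6 alternatives, and the count of 0 runs differing between genotypes was the same under all 9 and when each tumour was left out. Subtracting no flanks gave -0.016 for the mean of Tcra and Tcrd (exact adjusted p = 0.3125), 0.014 for that of Tcrg (0.3125), turned the Tcrb mean to -0.0058 and turned the Tcrb genotype difference to 0.0016. Normexp turned the Tcra and Tcrd genotype difference to -0.0038 (exact p = 0.857). The slide with both genotypes gave -0.018 for it, -0.029 for Tcrg and -0.037 for Tcrb. The Tcra and Tcrd difference was 0.047 with 500 kb flanks (exact p = 0.0476, adjusted p = 0.107). With medians over probes it was 0.0047, and the Tcrg difference was 0.017 (exact adjusted p = 0.825). The Tcrg mean passed the threshold with normexp (0.048), 500 kb flanks (0.039), 2 Mb flanks (0.034) and probes above background on all arrays (0.030), and missed it with medians (0.029, exact adjusted p = 0.0957). The cause of these changes was not tested. Runs called against non-leukemic DNA numbered 4, or 7.14% against 9.97% over the autosomes. They numbered 9 with normexp (16.1% against 17.9%), 1 with medians over probes (1.79% against 5.46%) and 7 after subtracting the median within 1 Mb (12.5% against 4.66%). That last setting puts the loci furthest above the autosomes. With 10 probes per run, 6 of 27 were called (22.2% against 17.7%).

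Leaving out each tumour in turn, genotype differences ranged from 0.013 to 0.037 for Tcra and Tcrd, -0.043 to -0.027 for Tcrb and 0.032 to 0.061 for Tcrg. Means ranged from -0.044 to -0.033, 0.030 to 0.040 and 0.021 to 0.035, and runs called against non-leukemic DNA from 3 to 5 (5.36% to 8.93%, against 5.44% to 11.5% over the autosomes, with the loci above the autosomes in 4 of 10 cases). Same-numbered tumours of the 2 genotypes correlated at -0.013 to 0.12 over runs, with 1 of 5 over 0.1, the tumours numbered 5. Of 5 Ikzf1+/+ tumours, 1 correlated best with its own number. Whether the numbers pair tumours by design cannot be told from these correlations. With a replicate block the differences stayed 0.023, -0.034 and 0.044 (exact adjusted p = 0.4375, 0.281 and 0.281) and 0 runs were called in the loci, with 20 higher and 67 lower over the autosomes against 27 and 99. Autosomal genotype calls rose to 1344 higher and 395 lower with normexp and fell to 3 and 8 with medians over probes. Probe gaps in Tcra and Tcrd and a run noise (robust SD) of up to 0.129 limit what can be seen. Losses inside the gaps or in a small share of cells could be missed.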
